A study of Mus musculus with 12 samples.

Results

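Sphkap and Parm1 are 2 of the 16640 genes in a table of transcript abundance from the arcuate nucleus (ARC) of female mice. They were chosen by their lower signal in mutant than in control mice on chow, and their correlations with Esr1 and with each other were named in the same choice. The comparison of genotypes on chow, and every contrast that shares its libraries, is therefore given for them as a description without a test, and so are those correlations. Both passed the filter on low values, a signal of at least 1 in at least 2 libraries, as did 15801 genes in all.

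RNA was sequenced from 12 ARC libraries in 4 groups, all from females aged 27 weeks of a mixed CD-1;129P2 background and carrying loxP-flanked Esr1 alleles. Control mice (Esr1 fl/fl) on standard breeder chow gave 3 libraries, and mutant mice (Esr1 Nkx2.1-cre), in which Cre recombinase deletes Esr1, the gene for oestrogen receptor alpha, gave 4 on the same chow. Control mice on a high-fat diet (HFD) gave 2 libraries and mutant mice on HFD gave 3; the HFD began at 10 weeks of age and lasted 17 weeks. The ARC was microdissected from a 2 mm block of hypothalamus, and the Nkx2-1 driver is active through development and outside the ARC, so that the deletion was not limited to this nucleus. Library numbers only name the libraries.

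Sphkap encodes an A-kinase anchoring protein. Such proteins hold protein kinase A (PKA), the main effector of cyclic AMP, at defined places in the cell, and SPHKAP binds the type I regulatory subunits of PKA and was first found as a partner of sphingosine kinase 1. In neurons it is placed at junctions between the endoplasmic reticulum and the plasma membrane, where ion channels cluster. Parm1 encodes a single-pass, mucin-like membrane protein, known as an androgen-regulated gene of the prostate. Oestrogen receptor alpha is a ligand-activated transcription factor found in many ARC neurons, among them those that control reproduction and energy balance.

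Sphkap (ENSMUSG00000026163) is a protein-coding gene at 83254139 to 83408200 on the minus strand of chromosome 1 in GRCm38. Parm1 (ENSMUSG00000034981), also protein coding, spans 91517615 to 91626894 on the plus strand of chromosome 5. The bases before each start site are shown, as RefSeq gives them for GRCm38.p6. They were searched for response elements of the receptor among other motifs, and bases farther from the start were not searched. For Sphkap the window is chr1:83408201-83408450, read on the minus strand, and for Parm1 chr5:91517450-91517614, read on the plus strand, where fewer bases lie before the annotated start. Capitals mark the matches to the motifs searched, which were a GC box and an oestrogen response element half-site.
Sphkap: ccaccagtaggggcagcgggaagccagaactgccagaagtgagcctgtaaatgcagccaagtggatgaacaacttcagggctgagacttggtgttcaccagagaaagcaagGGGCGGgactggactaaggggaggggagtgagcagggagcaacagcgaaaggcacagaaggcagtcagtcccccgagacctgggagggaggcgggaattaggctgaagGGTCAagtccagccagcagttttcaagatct
Parm1: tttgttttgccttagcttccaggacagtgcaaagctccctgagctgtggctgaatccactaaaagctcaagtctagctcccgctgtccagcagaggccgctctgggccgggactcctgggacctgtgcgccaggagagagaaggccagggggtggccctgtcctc

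On both strands, the Sphkap window held the half-site GGTCA at position -31 from the start and the GC box GGGCGG at position -139. Of 32851 RefSeq promoters, 35.2% held the half-site and 32.7% the GC box, so that neither match sets this promoter apart. The Parm1 window, of 165 bases, held no match to any motif searched, while the shares of promoters are over windows of 250 bases. The full oestrogen response element (GGTCANNNTGACC) was in neither window and in 0.0639% of promoters. The cyclic AMP response element (TGACGTCA, in 1.55%), its half-site (TGACG, in 17.8%) and the AP-1 site (TGANTCA, in 6.75%) were also absent from both. The half-sites lie within their full elements, and no match is itself a binding site.

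Esr1, the deleted gene, was read first as a check of the labels. Its signal was 17.8, 7.29 and 19.8 in control chow libraries 1 to 3 and 6.05, 3.15, 1.93 and 1.65 in mutant chow libraries 1 to 4. It was 15.3 and 22.4 in the control HFD libraries and 10.7, 16.6 and 11.9 in those labelled mutant HFD. Esr1 was thus lowest in the 4 mutant chow libraries. The libraries labelled mutant HFD had a mean of 13.1 against 18.8 in control HFD, or 69.4%, a log2 difference of -0.49 ± 0.49 (SE). They overlapped the control HFD libraries and each lay above every mutant chow library. Their Esr1 thus does not clearly bear out the deletion in their label. Control chow library 2 had the lowest Esr1 of the controls. That library also stood apart by its pituitary markers, with a summed signal of 5927 against 113 to 2015 in the other 11 libraries, and by a summed ARC neuron signal of 8241, above the other 2 control chow libraries at 3829 and 4460. The effect of its tissue content on any result was not tested.

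On chow, both genes were lower on average in mutant than in control mice, at 68.5% of the control mean for Sphkap and 66.1% for Parm1. Sphkap signal was 14.6, 8.80 and 18.9 in the control chow libraries and 12.5, 9.19, 8.16 and 8.83 in the mutant chow libraries. The means were 14.1 ± 5.08 (SD, n = 3) and 9.66 ± 1.91 (SD, n = 4). The groups overlapped, since control chow library 2, at 8.80, lay within the range of the mutants. The log2 fold change, on the log2(signal + 1) scale used throughout, was -0.46 ± 0.28 (SE).

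Parm1 signal was 38.6, 26.5 and 49.1 in the control chow libraries, with a mean of 38.1 ± 11.3 (SD, n = 3). In the mutant chow libraries it was 26.6, 27.0, 21.5 and 25.4, with a mean of 25.1 ± 2.50 (SD, n = 4). Here too the groups overlapped only through control chow library 2, and the log2 fold change was -0.54 ± 0.21 (SE). The size of both differences turned on the control libraries. Without control chow library 2 the mutant means were 57.6% of the control mean for Sphkap and 57.4% for Parm1, and the log2 fold changes were -0.74 and -0.77. Without control chow library 3 they were -0.23 and -0.34. For background, 0.0190% of the genes tested had an adjusted p under 0.05 in this contrast and 4.34% an unadjusted one, and nothing is read from the place of the chosen genes among them. In bulk tissue, fewer cells that express a gene and less RNA per cell cannot be told apart.

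**Figure D1:**
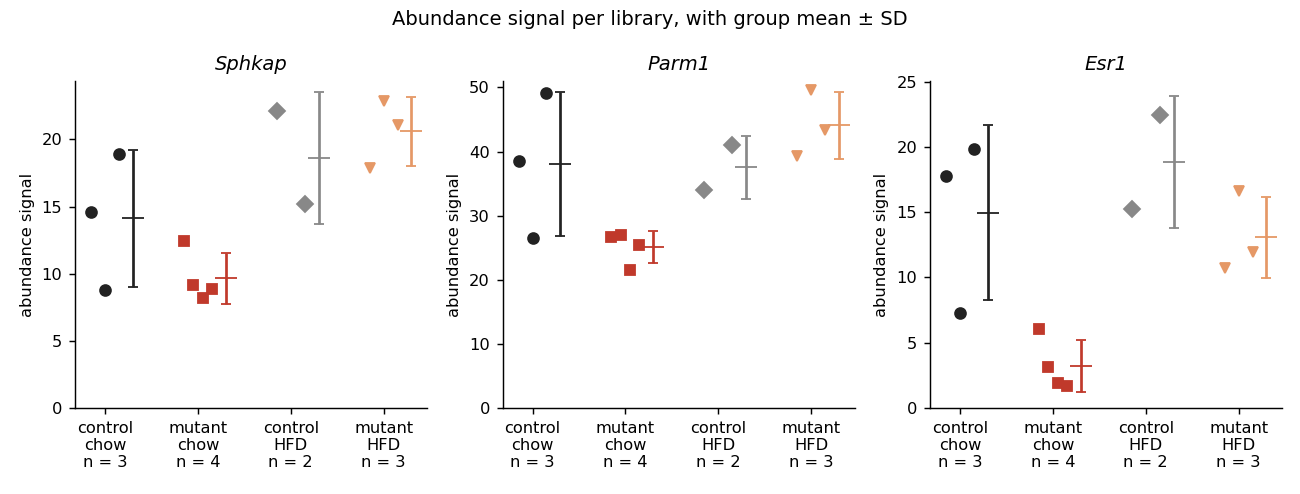
Abundance signal (linear axis, as deposited) of Sphkap, Parm1 and Esr1 in each of the 12 libraries, by group. Each point is a library, and the bars beside the points are the group mean ± SD. Control chow library 2, the lowest control point in each panel, lies among the mutant chow libraries for Sphkap and Parm1.

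On HFD both means were slightly higher in the mutants. Sphkap signal was 22.1 and 15.2 in the control HFD libraries and 17.8, 22.9 and 21.1 in those labelled mutant HFD, with means of 18.6 ± 4.92 (SD, n = 2) and 20.6 ± 2.55 (SD, n = 3). Parm1 signal was 34.0 and 41.0 in the control HFD libraries, a mean of 37.5 ± 4.94 (SD, n = 2). It was 39.3, 49.6 and 43.4 in the libraries labelled mutant HFD, a mean of 44.1 ± 5.20 (SD, n = 3). The groups overlapped for both genes.

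This contrast shares no library with the chow comparison and was tested with limma across all genes. Its libraries do enter the correlations named in the choice, so that the test is not wholly independent of it. The fit also shares its estimate of the spread over all groups, the chow libraries included, so the SE, interval and p depend on them too. The log2 fold change of Sphkap, mutant minus control, was 0.15 ± 0.33 (SE), with a 95% confidence interval of -0.56 to 0.87 (limma adjusted p = 1, unadjusted p = 0.648). That of Parm1 was 0.23 ± 0.25 (SE), with an interval of -0.32 to 0.77 (limma adjusted p = 1, unadjusted p = 0.383). In fold terms the intervals ran from 0.678 to 1.82 and from 0.803 to 1.71. The chow differences chose the genes and have their own SE, so these intervals are not read against them. The difference between diets in the genotype contrast, HFD minus chow, was 0.61 ± 0.43 (SE) for Sphkap and 0.77 ± 0.33 (SE) for Parm1 on the log2 scale, and is given without a test because it includes the libraries that chose the genes. In this contrast 0.00633% of all genes passed an adjusted p of 0.05 and 2.21% an unadjusted one. The comparison rests on 2 control libraries, and on libraries labelled mutant HFD in which Esr1 overlapped the controls.

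Within the mutants, both genes were higher on HFD than on chow. The Sphkap mean on HFD was 2.13 times that on chow, a log2 difference of 1.03 ± 0.28 (SE), and the Parm1 mean was 1.75 times, a difference of 0.79 ± 0.21 (SE). For each gene every library labelled mutant HFD lay above every mutant chow library, as also held for Esr1, at 4.09 times. The groups did not overlap, with the HFD group higher, for 3.11% of all genes tested. In this contrast 0.0190% of genes had an adjusted p under 0.05 and 5.37% an unadjusted one. The mutant chow libraries are among those that chose the genes, so that the difference carries no test.

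In the controls the diets overlapped for both genes. The mean on HFD was 1.32 times that on chow for Sphkap, a log2 difference of 0.41 ± 0.33 (SE). For Parm1 it was 0.986 times, a difference of 0.02 ± 0.25 (SE). Of all genes tested, 0% had an adjusted p under 0.05 by limma in this contrast and 3.54% an unadjusted one.

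In order of mean signal, the mutant chow group was the lowest for both genes. For Sphkap control chow, control HFD and mutant HFD followed, and each of these 3 overlapped its neighbours. For Parm1 the order was control HFD, control chow and mutant HFD, again with overlap between neighbours. The mutant chow group overlapped control chow, through its library 2, and neither HFD group. The share of all genes without overlap was counted only against mutant HFD, where it was 3.11% with the HFD group higher.

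Across the 12 libraries the 3 genes moved together. On the log2 scale Pearson's r was 0.88 between Sphkap and Parm1 (Spearman's rho 0.87), 0.82 between Sphkap and Esr1 (rho 0.68) and 0.87 between Parm1 and Esr1 (rho 0.81). These are descriptions with no p, since the libraries come from groups of different mean and the low end holds the mutant chow libraries and control chow library 2. Without mutant chow libraries 3 and 4, the farthest from the median of the second gene of each pair, r was 0.82, 0.71 and 0.81. Over the 8 libraries outside the mutant chow group, r was 0.74 between Sphkap and Parm1, 0.48 between Sphkap and Esr1 and 0.68 between Parm1 and Esr1.

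**Figure D2:**
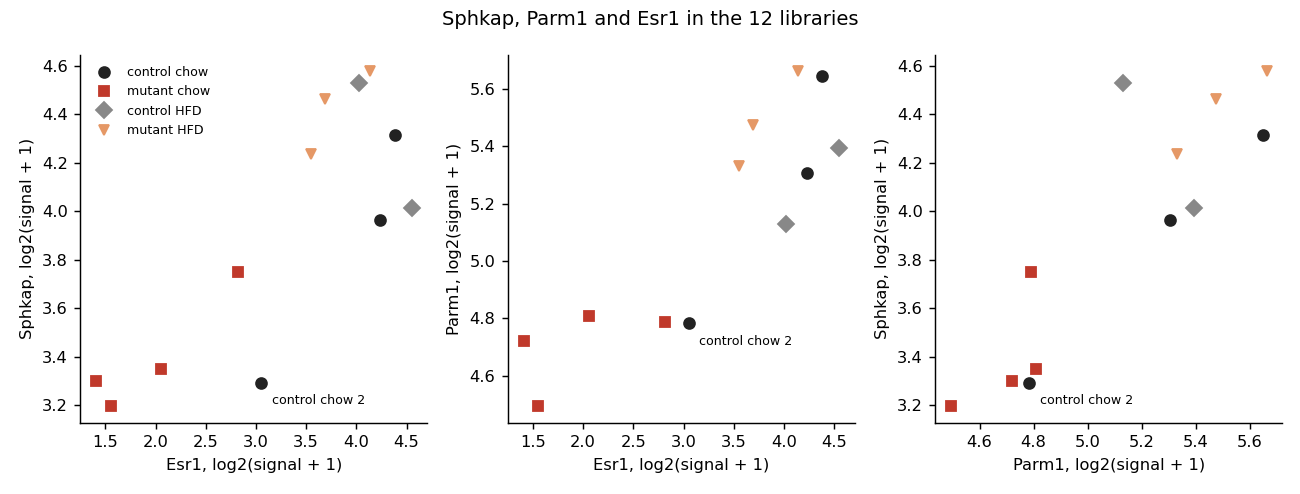
Log2(signal + 1) of Sphkap against Esr1, Parm1 against Esr1, and Sphkap against Parm1. Each point is 1 of the 12 libraries, with colour and shape for its group. The mutant chow libraries and control chow library 2 sit at the low end in every panel, and Pearson's r is 0.82, 0.87 and 0.88 from left to right.

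To remove the group means, each library was expressed as its deviation from its own group. Parm1 and Esr1 had a within-group r of 0.79 (rho 0.82) and deviated to the same side in 11 of 12 libraries. Sphkap and Esr1 had an r of 0.73 (rho 0.69), with 8 of 12 libraries on the same side. Sphkap and Parm1 had an r of 0.73 (rho 0.55), with 7 of 12. Without control chow library 2, the lowest of its group for all 3 genes, the r of Parm1 and Esr1 was 0.62. In the same setting that of Sphkap and Esr1 was 0.51 and that of Sphkap and Parm1 was 0.38. These values carry no p, since the choice of the genes named them and rests on the same libraries. Libraries also share depth and tissue content across genes, and the part of these in the correlations was not tested.

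**Figure D3:**
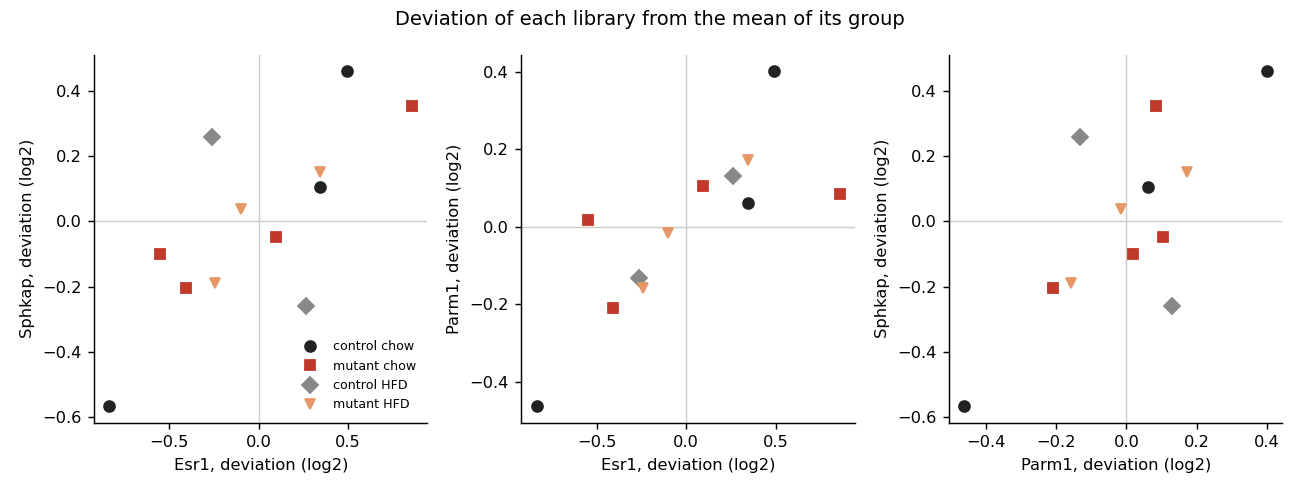
Deviation of each library from the mean of its group, in log2 units, for the same 3 pairs of genes. Each point is 1 of the 12 libraries, and grey lines mark 0. In the middle panel, Parm1 against Esr1, 11 of 12 points lie in the lower left or the upper right.

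Genes with a pattern like that of the pair were ranked by Pearson's r over the 12 libraries among 12142 genes with a mean signal of at least 5. Closest to Sphkap were Nos1, the neuronal nitric oxide synthase (r = 0.90), Rab3c, a small GTPase of synaptic vesicles (0.89), and Cacna1c, the pore subunit of the L-type calcium channel CaV1.2 (0.89). Parm1 (0.88) and Reep1, a shaping protein of the endoplasmic reticulum (0.88), followed. Closest to Parm1 were Sv2c, a synaptic vesicle glycoprotein (0.90), Qrsl1, a mitochondrial amidotransferase subunit (0.88), Sphkap (0.88), Esr1 (0.87) and Psmd2, a proteasome subunit (0.87). Sphkap was thus place 3 in the list of Parm1, and Parm1 place 4 in that of Sphkap. Esr1 was place 4 for Parm1 and place 32 for Sphkap. The places among these 3 genes rest on the correlations named in the choice and are descriptions only. Sv2c signal was 26.9 ± 12.02 (SD, n = 3) in the controls on chow and 14.7 ± 2.02 (SD, n = 4) in the mutants on chow, against 24.6 ± 0.360 (SD, n = 2) and 24.1 ± 5.63 (SD, n = 3) on HFD. Nos1 was 11.9 ± 5.36 and 8.57 ± 3.12 on chow and 12.8 ± 3.55 and 17.2 ± 2.92 on HFD, in the same order of groups and with the same n.

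Genes related in role or build to SPHKAP and PARM1, with steroid receptors and oestrogen-responsive genes, were read from 6 lists. The lists held 94 genes, of which 84 were tested. None had a limma adjusted p under 0.05 in any of the 4 contrasts. At an unadjusted p under 0.05 there were 5 of 84 (5.95%) for genotype on chow, 0 for genotype on HFD, 9 (10.7%) for diet in mutants and 2 (2.38%) for diet in controls. These shares stand against 4.34%, 2.21%, 5.37% and 3.54% of all genes. The values below are given for genes that did not pass the adjusted test. Genotype on chow and diet in mutants share the mutant chow libraries with opposite sign. Opposite differences in those contrasts are therefore not separate observations.

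Among the 9 PKA subunits and inhibitors the median log2 difference between genotypes on chow was 0.03, beside 0.01 over all genes, with 5 higher and 4 lower. In mutants on HFD against chow all 9 were on the higher side, with a median of 0.20 beside -0.02 over all genes, and 8 of 9 were on the higher side in controls, with a median of 0.21. Prkar2b, a type II regulatory subunit, had the lowest unadjusted p of the list for diet in mutants (log2 difference 0.40, unadjusted p = 0.0164). Its signal was 42.4 ± 3.37 (SD, n = 4) on chow and 56.3 ± 4.0 (SD, n = 3) on HFD. Of the type I subunits, to which SPHKAP binds, Prkar1a had means between 503 and 541 and Prkar1b means between 496 and 578 over the 4 groups.

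Of 20 other A-kinase anchoring proteins, 17 were tested and had medians near 0 for genotype on chow (0.01, with 10 higher and 7 lower) and on HFD (0.02, with 9 higher and 8 lower), beside 0.01 and -0.01 over all genes. Wasf1, an actin regulator that anchors PKA, had a log2 difference of 0.68 between diets in mutants (unadjusted p = 0.0242), from 29.9 ± 9.24 (SD, n = 4) on chow to 46.6 ± 3.53 (SD, n = 3) on HFD. The list members of largest mean signal were Map2, the dendritic microtubule protein that anchors type II PKA, at 464 over all libraries, and Akap8l, a nuclear anchoring protein, at 94.6. Neither had an unadjusted p under 0.05 in any contrast.

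The 23 genes of sphingosine kinase and sphingosine 1-phosphate (S1P) metabolism and signalling lay mostly on the opposite side from Sphkap in 2 of the 4 contrasts. Both of these contrasts take in the mutant chow libraries, which also entered the choice of Sphkap. On chow 18 were on the higher side in mutants (median 0.14, beside 0.01 over all genes), and in mutants on HFD 18 were on the lower side (median -0.17, beside -0.02). For diet in controls 12 were higher and 11 lower, and for genotype on HFD 10 and 13. Sphk1 itself was low, with a mean signal of 2.25, and Sphk2 had a mean of 23.6. S1pr5, an S1P receptor of oligodendrocytes, was 2.69 ± 0.85 (SD, n = 3) in the controls on chow and 6.92 ± 2.34 (SD, n = 4) in the mutants on chow, and 6.75 ± 0.218 (SD, n = 2) in control HFD. Its log2 difference was 1.07 for genotype on chow (unadjusted p = 0.00699) and 1.09 for diet in controls (unadjusted p = 0.0164). The 5 oligodendrocyte markers were all on the higher side in mutants on chow, and none was on the higher side in mutants on HFD against chow, with 0 at an unadjusted limma p under 0.05 in either. Their summed signal was 1107 to 3539 in control chow, 1662 to 5356 in mutant chow, 1628 to 3343 in control HFD and 1684 to 2588 in mutant HFD, and its part in the S1pr5 values was not tested. Acer3, an alkaline ceramidase, had differences of -0.73 for diet in mutants and -0.74 in controls, and S1pr2 and Sptlc1 had differences of 1.53 and -0.46 for diet in mutants. The ceramide synthases Cers2 and Cers1 were the members of largest mean signal, at 84.7 and 59.8, and neither passed an unadjusted p of 0.05.

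At the junction of endoplasmic reticulum and plasma membrane, 15 genes were tested. On chow 11 were on the higher side in mutants, with a median of 0.21 beside 0.01 over all genes. Jph4, a neuronal junctophilin, had a difference of 0.44 (unadjusted p = 0.0490), from 74.2 ± 10.5 (SD, n = 3) in control chow to 102 ± 19.5 (SD, n = 4) in the mutants on chow. Vapa and Vapb, the tethers that hold the membranes together, had mean signals of 147 and 124. The Sphkap difference on chow was of the opposite sign to the median of this list. Of the 4 genes on the lower side, Cacna1c, among the closest to Sphkap, had a difference of -0.34. For diet in mutants Cacna1c had a difference of 0.53, in a list with 8 genes higher and 7 lower. It did not pass an unadjusted limma p of 0.05 in either contrast.

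Of 13 membrane mucins and sialomucins, proteins of a build like that of PARM1, 7 were tested. On chow 4 were higher in mutants and 3 lower, with a median of 0.05 beside 0.01 over all genes, and for diet in mutants 3 were higher and 4 lower, with a median of -0.20 beside -0.02. On the side of Parm1 on chow were Muc1, Podxl2 and Emcn, with differences of -0.94 ± 0.83, -0.44 ± 0.35 and -0.23 ± 0.55 (SE). None of them had an unadjusted limma p under 0.05. Podxl2 signal was 491, 1162 and 399 in control chow libraries 1 to 3 and 336 to 546 in the mutant chow libraries. Only control chow library 2 thus lay above the mutants for that gene. Selplg, the P-selectin ligand of leukocytes and microglia, was 22.5 ± 4.33 (SD, n = 3) in the controls on chow and 37.1 ± 4.08 (SD, n = 4) in the mutants on chow, a log2 difference of 0.71 (unadjusted p = 0.00234). In mutants on HFD it was 24.0 ± 1.14 (SD, n = 3), a diet difference of -0.61 (unadjusted p = 0.00650). Podxl and Cd34, sialomucins of vessels, had diet differences of -0.85 and -0.74 in mutants (unadjusted p = 0.00904 and 0.0116). The differences of Selplg, Podxl and Cd34 were opposite in sign to that of Parm1 in the same contrast. Podxl2 and Cd164 had the largest mean signals, 529 and 91.9.

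Among steroid receptors and oestrogen-responsive genes, 13 of 14 were tested, Esr1 included. On chow 4 were higher in mutants and 9 lower (median -0.06), and for diet in mutants 10 were higher on HFD and 3 lower (median 0.13). Pgr, the progesterone receptor, had a log2 difference of -0.23 between genotypes on chow (unadjusted p = 0.535). Oxtr, the oxytocin receptor, was 4.35 ± 1.68 (SD, n = 3) in the controls on chow and 11.5 ± 4.74 (SD, n = 4) in the mutants on chow, a difference of 1.20 (unadjusted p = 0.00447), opposite in direction to Sphkap and Parm1. Gal, which encodes galanin, and Cited1, a transcriptional coactivator, had the largest mean signals, 424 and 319, with differences of -0.003 and -0.20.

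**Figure D4:**
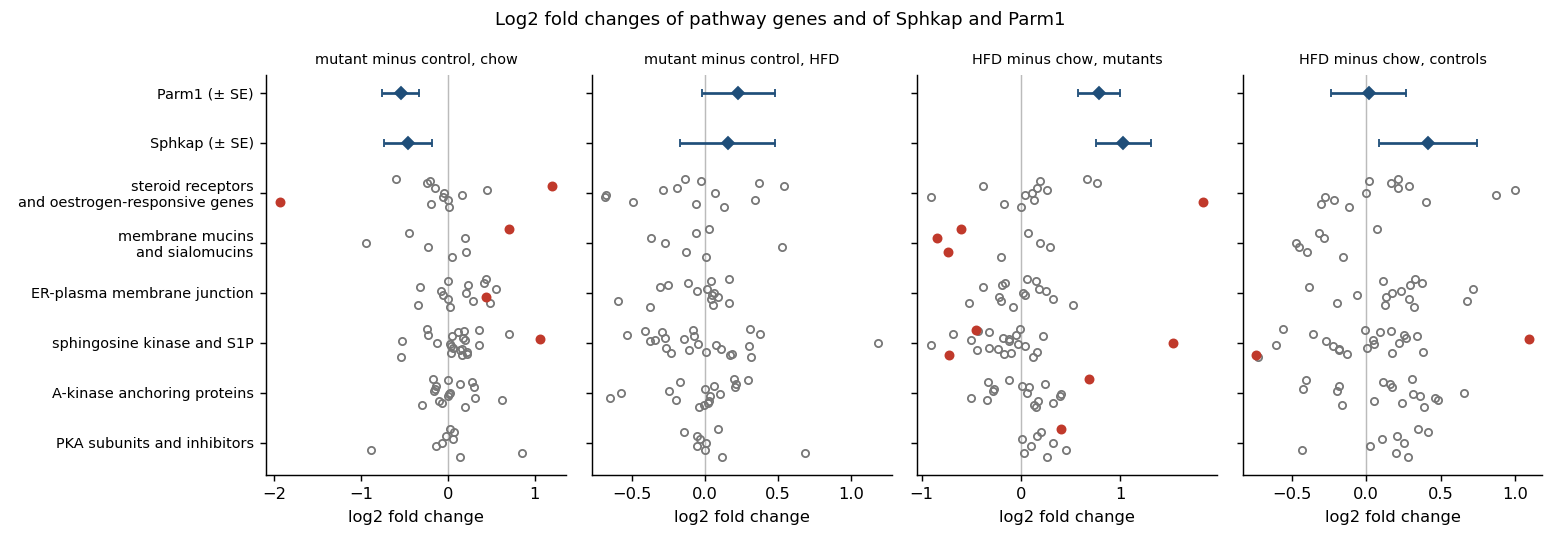
Log2 fold changes of the 84 tested pathway genes (circles, 1 a gene, in 6 lists) and of Sphkap and Parm1 (diamonds, ± SE) in 4 contrasts. Filled red circles have an unadjusted limma p under 0.05, and none has an adjusted p under 0.05. Sphkap and Parm1 lie left of 0 on chow and right of 0 for HFD in mutants. Some lists also lie mostly to 1 side. For HFD in mutants all 9 PKA genes lie right of 0 and 18 of 23 S1P genes left of it. On chow 18 of 23 S1P genes lie right of 0, in a contrast that shares the mutant chow libraries.

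Summed microglia signal was highest in the mutant chow libraries, the group of lowest mean for both genes. The 5 microglia markers had a summed signal of 288 to 331 in the mutant chow libraries, above every other library, against 164 to 270 in control chow, 175 to 211 in control HFD and 174 to 207 in mutant HFD. Control chow library 2 had the highest value outside the mutants on chow. C1qa alone gave 154 to 195 of the sum in the mutant chow libraries. On chow 5 of 5 were on the higher side in mutants, 3 with an unadjusted p under 0.05, and in mutants on HFD none was on the higher side and 3 had an unadjusted p under 0.05. Over all genes those shares were 4.34% and 5.37%. The mean log2 signal of these markers had an r of -0.74 with Sphkap, -0.79 with Parm1 and -0.86 with Esr1 over the 12 libraries. As deviations from the group means, r was -0.51 with Sphkap and -0.40 with Parm1. The part of microglia content in the lower Sphkap and Parm1 signal was not tested.

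Several marker lists of the tissue block had an r farther from 0 with Sphkap than with Parm1. The 11 ARC neuron markers had an r of -0.75 with Sphkap and -0.50 with Parm1, and summed to 3829 to 8241 in control chow, 4460 to 8503 in mutant chow, 2261 to 6766 in control HFD and 3950 to 4617 in mutant HFD. The 5 markers of the dorsomedial and premammillary nuclei, neighbours of the ARC, had an r of 0.75 with Sphkap and 0.49 with Parm1. They summed to 19.2 to 36.6 in control chow and 25.2 to 33.7 in mutant chow, against 35.4 to 37.8 and 36.6 to 38.5 on HFD. Tanycyte and ependymal markers had an r of -0.68 with Sphkap and -0.54 with Parm1. The 5 pituitary markers in the table had an r of -0.52 and -0.27, and the 6 pan-neuronal markers 0.56 and 0.23. The remaining lists had r between -0.41 and 0.41 with Sphkap. How far the makeup of the dissected block sets the level of either gene was not tested.

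**Figure D5:**
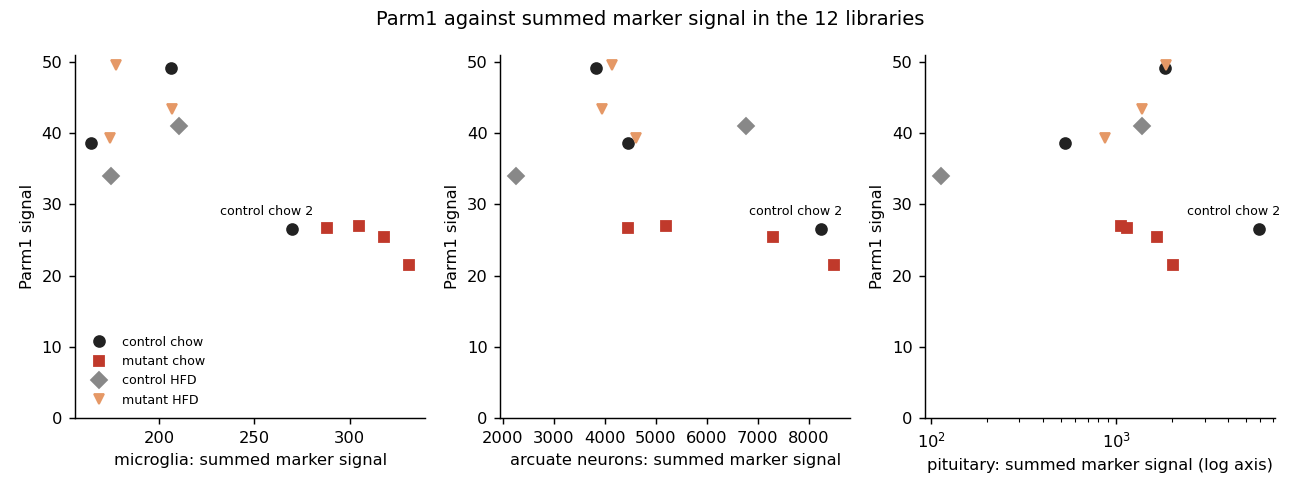
Parm1 signal (linear axis) against the summed signal of the microglia, ARC neuron and pituitary markers in the 12 libraries, the last on a log axis. The mutant chow libraries have the highest microglia sums, 288 to 331, followed by control chow library 2, and that library has the highest pituitary sum, 5927.

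Genes near each locus were read in the same way. Of 21 protein-coding genes that start within 1 Mb of Sphkap, 7 were tested, and by limma none had an unadjusted p under 0.05 in any contrast. Of 29 near Parm1, 15 were tested, with 0 for genotype on chow or on HFD at that level. For diet in mutants 2 of the 15 did, both higher on HFD, beside 5.37% of all genes. Cdkl2, a kinase gene that starts 526 kb from Parm1, had a log2 difference of 0.64 (unadjusted p = 0.00271), and Rassf6, a gene of the Ras association domain family, one of 0.78 (unadjusted p = 0.0484). The same 2 were higher on HFD in controls, by 0.52 and 1.02 (unadjusted p = 0.0258 and 0.0344), beside 3.54% of all genes at that level. Rassf6 was low, with a mean signal of 1.45 over all libraries.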

How the data were processed

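Total RNA was extracted from microdissected ARC, and libraries (NEBNext Ultra II) were sequenced on an Illumina NovaSeq instrument. The authors quantified reads with kallisto in gene mode against the mm10 transcriptome and exported the deposited abundance signal with sleuth. Its unit is close to TPM but is not named, its columns sum to between 922172 and 1254999, and it holds no whole reads, so depth per library is unknown and no counting interval is given. Tool versions, the annotation release and strand settings are not given in the sources used here. Nothing in the labels says that libraries of a group came from separate cages or days, so p-values measure only the spread between these libraries.

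Values were read for 12 libraries, 2 to 4 in a group, grouped by the genotype and diet labels. Of 16640 genes, 16633 matched the GENCODE M21 annotation of GRCm38. Genes with a signal of at least 1 in at least 2 libraries (15801) were fitted on log2(signal + 1), which understates changes of low genes, with limma 3.58.1 in R 4.3.3 (1 mean per group, trended variance), and p-values were Benjamini-Hochberg adjusted over all of them. Within-group correlations were computed in Python 3.11.15 with SciPy 1.17.1. The exact permutation test planned for them is not reported, since the choice of the genes named these correlations. Scripts were tested on simulated data. Alternatives were other scalings, pseudocounts, filters and fits, and leaving out each library. Named in the text are the 2 genes, Esr1, per pathway list up to 4 genes with an unadjusted p under 0.05 and the 2 of largest mean, the 5 genes most like each member, and protein-coding neighbours within 1 Mb. Sphk1, Sphk2 and Pgr were named beyond that rule for their known roles, after values were seen, and so were Muc1 and Emcn as the other mucins lower in mutants on chow and Cdkl2 and Rassf6 as the neighbours that moved. Genes and lists were chosen with earlier results of these data known. Gene lists left untested 7 genes not in the table and 3 below the filter. Listed markers not in the table were Neurod6, Neurod2, Slc17a7, Gh and Pou1f1. Some members of the gene lists, and 1 motif searched, are counted but not reported here by name.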

Additional observations from a re-analysis of the deposited data

Results flagged for a closer look

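Prkar2b, a regulatory subunit of PKA, had 1 library far from the others in the mutant chow group. Its signal was 40.8, 40.8 and 40.6 in mutant chow libraries 1 to 3 and 47.5 in library 4. The gap between library 4 and its nearest neighbour was 0.968 of the range of the 4 libraries, above Dixon's 95% critical value. Chance alone passes that critical value in about 1 in 20 groups, and 26 measures were checked.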

How the results depend on the processing

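Of 288 recomputed values of the main comparisons, 270 kept their sign and stayed on their side of the threshold or within the spread between replicates, and so did all 319 values of single named genes. The sign turned in 5. The HFD log2 difference of Sphkap ran from -0.10 to 0.41 when libraries were left out, and was -0.10 without control HFD library 2. The Parm1 difference between diets in controls, 0.02, was -0.01 with quantile normalisation, -0.09 with array weights, -0.21 without control chow library 2 and -0.11 without control HFD library 2. Among the within-group correlations, rescaling each library to a sum of 1000000 gave 0.84 for Sphkap and Parm1 and 0.80 for Sphkap and Esr1, and quantile normalisation gave 0.72 for Parm1 and Esr1. Leaving out 1 library gave 0.38 to 0.92 for Sphkap and Parm1, 0.51 to 0.91 for Sphkap and Esr1, and 0.62 to 0.91 for Parm1 and Esr1. The cause of these changes was not tested. Leaving out a control HFD library left that group with 1, which limma takes to vary like the other groups. The chow difference stayed below 0 and the diet difference in mutants above 0 in each of the 20 alternatives for both genes, and the adjusted calls among pathway genes stayed at 0. Many alternatives cannot change a log2 difference, yet count as kept. These are other filters, a fit without the trend or of only the groups compared, and leaving out a library of another group. The chow contrast also chose the genes, so its steady sign is a description only. Rescaling moved the median of all genes by 0.13 on the log2 scale for diet in controls, by -0.15 for the difference between diets in the genotype contrast, and by less than 0.1 in the other contrasts. No paired analysis was possible because the sample labels give no replicate numbers, and the running numbers in the column names only name the libraries. Depth was not given, so counting error could not be separated from the spread between libraries.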
